A study of Rattus norvegicus with 11 samples.

Results

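The genes described are the very long protein-coding genes of the rat cerebellum data, those whose annotated span from first to last base is 200 kb or more. They were taken by annotation and level: protein-coding, a span of at least 200 kb, a row in all 11 files, and a mean of at least 5 normalized reads over the libraries. Genes of chromosome 16, where Ercc6 lies, and 16 families (names starting Kcn, Scn, Cacn, Gri, Grm, Gabr, Slc, Col, Chd, Syt, Rims, Unc13, Rbfox, Celf, Hdac and Dnah) were left out. This gave 237 genes of the 23093 features that all files share. Names starting with LOC, RGD, AABR or AC0 belong to 9 of the 237. These 9 are counted throughout but left out where single genes are picked by length or p. Of the 10250 protein-coding genes in all files, 369 spanned 200 kb or more. Of these, 99 missed the minimum level, 11 were left out for chromosome 16 and 22 for their name. The study asked what loss of CSB, the protein encoded by Ercc6, does to gene expression in a rat model of Cockayne syndrome. All animals were Sprague-Dawley rats of 10 weeks, and RNA came from tissue labelled cerebellar cortex. There were 6 libraries homozygous for the R571X allele of CSB, 2 libraries with 1 such allele, called heterozygous here although their genotype label writes the other allele as a minus sign, and 3 wild-type libraries. The labels do not state whether the libraries stem from separate animals. The p-values thus reflect only how much these samples varied, which may be technical.

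RNA polymerase II copies a gene from end to end, introns included, and the introns are spliced out of the transcript. A very long gene therefore offers far more template to damage, pausing and early termination per finished mRNA than a short gene. CSB is recruited to RNA polymerase II stalled at a DNA lesion, where it starts transcription-coupled repair. In brain, very long genes include many that encode cell adhesion molecules, receptors and signalling proteins of neurons and glia.

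The promoters of 8 of these genes are shown because the genes sat at opposite ends of the comparison of homozygous and heterozygous libraries. They are those that matched a promoter among the 5 genes of smallest p in each direction; Prex2 and Cpq did not match. Cntn3, Lrrtm4, Htr2c, Npsr1 and Ndst4 read higher in homozygous libraries than in heterozygous ones, and Clic5, Myo10 and Itga9 read lower. The lines give the 250 bases before the most upstream RefSeq start of each gene in build GRCr8, 5′ to 3′ on the gene's own strand, with CpG dinucleotides in capitals. The positions are chr4:136681912-136682161, minus strand, for Cntn3, chr4:114104380-114104629, plus strand, for Lrrtm4, chrX:115452940-115453189, plus strand, for Htr2c, chr8:30882580-30882829, plus strand, for Npsr1, and chr2:216461293-216461542, plus strand, for Ndst4. They are chr9:24310965-24311214, minus strand, for Clic5, chr2:77831282-77831531, plus strand, for Myo10, and chr8:127185039-127185288, plus strand, for Itga9.
Cntn3: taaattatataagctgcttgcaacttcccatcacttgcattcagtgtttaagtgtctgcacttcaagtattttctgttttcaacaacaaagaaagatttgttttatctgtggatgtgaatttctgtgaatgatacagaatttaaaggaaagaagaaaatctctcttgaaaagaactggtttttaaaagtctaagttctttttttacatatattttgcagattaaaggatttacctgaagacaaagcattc
Lrrtm4: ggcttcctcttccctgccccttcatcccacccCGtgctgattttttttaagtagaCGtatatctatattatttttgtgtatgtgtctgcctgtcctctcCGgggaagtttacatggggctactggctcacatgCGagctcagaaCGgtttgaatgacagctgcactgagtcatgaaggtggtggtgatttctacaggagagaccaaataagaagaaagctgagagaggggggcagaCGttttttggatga
Htr2c: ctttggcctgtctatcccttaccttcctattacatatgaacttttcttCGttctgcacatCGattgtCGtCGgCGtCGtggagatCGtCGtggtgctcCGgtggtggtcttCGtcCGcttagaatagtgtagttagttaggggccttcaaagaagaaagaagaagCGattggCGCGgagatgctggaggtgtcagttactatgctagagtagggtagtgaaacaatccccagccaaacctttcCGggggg
Npsr1: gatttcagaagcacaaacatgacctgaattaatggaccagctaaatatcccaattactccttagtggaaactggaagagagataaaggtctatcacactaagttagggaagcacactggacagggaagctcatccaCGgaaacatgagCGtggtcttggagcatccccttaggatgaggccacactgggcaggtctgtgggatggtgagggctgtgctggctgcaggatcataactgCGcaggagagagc
Ndst4: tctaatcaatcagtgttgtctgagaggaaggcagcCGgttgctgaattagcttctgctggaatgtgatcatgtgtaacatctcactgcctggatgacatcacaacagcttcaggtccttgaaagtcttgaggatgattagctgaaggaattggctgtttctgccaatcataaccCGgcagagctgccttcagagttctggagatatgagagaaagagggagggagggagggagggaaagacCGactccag
Clic5: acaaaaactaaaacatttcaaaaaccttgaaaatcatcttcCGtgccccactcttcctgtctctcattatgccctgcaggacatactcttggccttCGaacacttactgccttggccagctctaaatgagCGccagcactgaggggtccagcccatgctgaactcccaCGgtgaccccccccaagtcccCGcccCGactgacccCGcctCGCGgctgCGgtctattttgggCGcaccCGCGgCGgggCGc
Myo10: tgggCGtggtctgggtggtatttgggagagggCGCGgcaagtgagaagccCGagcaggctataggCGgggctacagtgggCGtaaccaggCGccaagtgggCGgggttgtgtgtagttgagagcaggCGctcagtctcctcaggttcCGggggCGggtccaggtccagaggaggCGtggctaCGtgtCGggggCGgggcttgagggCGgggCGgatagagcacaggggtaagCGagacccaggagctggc
Itga9: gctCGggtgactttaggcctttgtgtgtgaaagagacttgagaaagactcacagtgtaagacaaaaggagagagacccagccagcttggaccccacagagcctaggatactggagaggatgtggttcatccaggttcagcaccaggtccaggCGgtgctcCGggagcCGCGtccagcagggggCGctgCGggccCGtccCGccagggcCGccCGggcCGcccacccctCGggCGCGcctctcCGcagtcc
The promoters of the genes that read higher hold 0 CpG in these 250 bases for Cntn3, 6 for Lrrtm4, 15 for Htr2c, 3 for Npsr1 and 3 for Ndst4. The other 3 hold 15, 18 and 16. Htr2c thus had as many as Clic5. These genes were picked for their differences, so their CpG counts describe them and test nothing. Values by promoter class over all matched genes are given further on.

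The libraries held 5406669 to 8723823 reads on features, of which the 237 genes took 0.851% to 1.23%. The files had been normalized in 2 sets. Set 1 joined the heterozygous libraries and homozygous replicates 1 to 3, and set 2 joined the wild type and homozygous replicates 4 to 6. Homozygous libraries are therefore compared with wild type inside set 2 (3 against 3) and with heterozygous inside set 1 (3 against 2). Ercc6 read 157, 158 and 153 across homozygous replicates 1 to 3, 123, 119 and 85.8 in replicates 4 to 6, 228 and 178 in the heterozygous libraries, and 295, 407 and 356 in the wild type. It fell against wild type by 1.69 on the log2 scale (SE 0.22, limma adjusted p = 0.0171), and every homozygous library was below every other library. Of the marker lists for the labelled tissue, Pcp2, Car8 and Ppp1r17 of Purkinje cells and all granule cell markers but Neurod1 were not in the tables used here. The summed neuron markers (5 of 5 listed) were 16833 to 25336 normalized reads in homozygous replicates 1 to 3 against 13393 to 14012 in the heterozygous libraries. Snap25 and Stmn2 were apart in that direction, Nefl and Nefm overlapped, and Rbfox3 ran the other way (3.61, 0 and 3.32 against 3.72 and 6.10). The summed endothelial and pericyte markers (4 of 6 listed) ran the other way, 4462 to 7266 against 11844 to 23163. So did the precursor marker Olig1, the 1 of 4 listed (3147 to 6425 against 7411 to 9476), while the granule cell marker Neurod1, the 1 of 5 listed, was higher in homozygous (161 to 317 against 35.4 to 65.7). In set 2 all of these overlapped between homozygous and wild type. There the Purkinje cell markers Pcp4 and Calb1 (2 of 5 listed) summed to 6329 to 11783 against 3853 to 5909. Neither was apart alone. Pcp4 read 3873 to 10269 against 2240 to 4270, and Calb1 1514 to 2456 against 1301 to 1640. Gfap, 1 of 5 astrocyte markers, was higher in homozygous without overlap in both sets. It read 19747 to 26113 against 11856 to 16089 in set 1, and 19108 to 27372 against 5832 to 16602 in set 2. Aqp4 was higher without overlap in set 1 only, and Aldh1l1 lower in set 2 only. The summed astrocyte markers overlapped in both sets. Eif2s3y, a gene of the Y chromosome, had 890, 0 and 1875 reads in homozygous replicates 4 to 6 and 0 in each wild-type library. It had 1, 941 and 1123 in homozygous replicates 1 to 3, and 0 and 669 in the heterozygous pair. In bulk tissue, fewer cells of a type and less RNA per cell cannot be told apart.

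The 237 genes spanned 200.2 to 2233 kb, with a median of 294 kb, and lay on 20 chromosomes, with 12 genes on X. Their exons summed to far less, a median of 3.90 kb (range 0.729 to 27.1), against 2.28 kb in the 6324 shorter protein-coding genes chosen by the same rules. Most were read at modest depth. The median gene had a mean of 52.9 normalized reads, 114 genes were under 50 and 13 were at 1000 or more, while the shorter genes had a median of 78.7. All but 11 were read in every library. The spread between libraries of 1 group was wider than in shorter genes, with a median within-group SD of 0.61 against 0.45 on the log2 scale. Of the 237, 82 overlap another listed feature on their own strand, with or without a gene name, and reads there may be shared. Among those named below these include Htr2c, Lrrtm4, Myo10, Nebl, Prex2, Sdk2 and Frmd3. The rule fell between Deptor (200595 bases) and Arhgap45 (200235 bases), which were in, and Lhfp (199744 bases) and Ebf2 (198643 bases), which were out. By level it fell between Hdx and Pik3c2g, at means of 5.30 and 5.33, and Pappa and Spon1, at 4.92 and 4.80.

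Per kb of exon, levels differed widely. Ncald, which encodes the neuronal calcium sensor neurocalcin, led with a mean of 2711 normalized reads per exonic kb. Rcan2, a regulator of the phosphatase calcineurin, had 1012, and Gabbr2, a subunit of the GABA-B receptor, had 936. Chchd6, a protein of the mitochondrial inner membrane, had 878, Prex2, an activator of the small GTPase Rac, 874, and Pcsk2, a protease that matures neuropeptides, 809. Fto, an RNA demethylase, had 788. At the other end were Utrn, the dystrophin relative utrophin, with 0.455, and Dmd with 0.609. The median was 12.2.

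**Figure D1:**
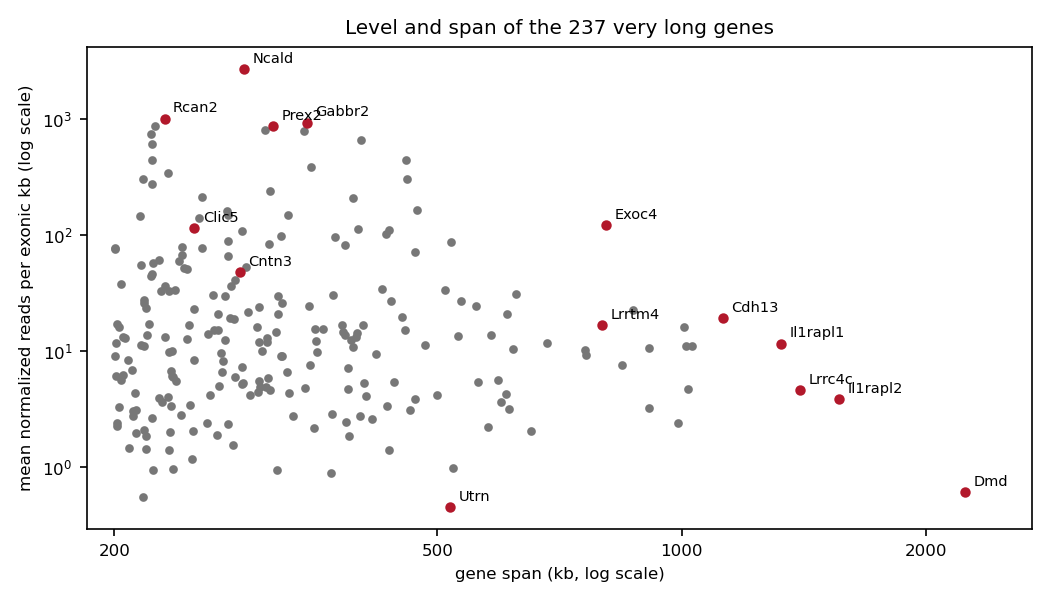
Each point is 1 of the 237 genes, with its span in kb on the x axis and its mean normalized reads per exonic kb over 11 libraries on the y axis, both on log scales; red points are named. The highest levels, from Ncald at 2711 downward, sit among genes under 500 kb, and Dmd at 2233 kb is near the bottom at 0.609.

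Leaving out genes with LOC, RGD, AABR or AC0 names, the 10 longest were read at low levels. The groups overlapped in all of them in both within-set comparisons. Dmd (dystrophin, chrX:51286737-53519259, rn6, plus strand, 2233 kb with 13.96 kb of exon) read 8.65, 4.24 and 14.95 across homozygous replicates 1 to 3, 7.44 and 10.99 in the heterozygous pair, 2.34, 7.93 and 14.99 in homozygous replicates 4 to 6, and 12.04, 6.57 and 3.32 in the wild type. The groups overlapped throughout, with log2 differences of 0.05 (SE 0.66) for homozygous minus wild type and -0.11 (SE 0.74) for homozygous minus heterozygous. Its neighbours on X in this ranking, Il1rapl2 (1564 kb) and Il1rapl1 (1326 kb), encode synaptic adhesion proteins of the interleukin receptor family. Il1rapl1 read 65.6, 20.1 and 11.6 across homozygous replicates 1 to 3, 13.6 and 12.2 in the heterozygous pair, 21.04, 12.5 and 40.8 in homozygous replicates 4 to 6, and 13.1, 48.8 and 18.3 in the wild type. Single libraries of the homozygous and wild-type groups were high in it, and the groups overlapped. Lrrc4c (1398 kb), which encodes the netrin-G ligand of synapses, read 17.3, 11.7 and 8.31 in homozygous replicates 1 to 3, against 1.24 and 8.55 in the heterozygous pair. Its groups overlapped too. Cdh13 (chr19:50848736-51972103, 1123 kb), a cadherin held in the membrane by a lipid anchor, was the best-read of the 10 with a mean of 78.4. It read 88.7, 43.4 and 93.9 across homozygous replicates 1 to 3, 140.1 and 31.7 in the heterozygous pair, 39.7, 90.7 and 65.8 in homozygous replicates 4 to 6, and 107, 98.5 and 63.1 in the wild type. Its heterozygous pair alone spanned the range of all other libraries. The rest were Gramd1c (1029 kb, a carrier of cholesterol between membranes), Pard3b (1012 kb, a cell polarity protein), Gpc6 (1006 kb, a glypican), Astn2 (989 kb, an astrotactin) and Cntnap5b (912 kb, a contactin-associated protein). Cntnap5b read 100.3, 37.1 and 23.3 across homozygous replicates 1 to 3, 11.2 and 24.4 in the heterozygous pair, 16.4, 32.9 and 84.1 in homozygous replicates 4 to 6, and 10.9, 84.5 and 38.2 in the wild type. Its heterozygous pair was low, as was wild-type replicate 1, and the log2 difference from heterozygous was 1.37 (SE 0.85, limma adjusted p = 0.541). The log2 differences of these 5 from heterozygous ran from -0.39 in Astn2 to that value. Their log2 differences between homozygous and wild type ran from -0.44 in Pard3b to 0.19 in Gramd1c, with limma adjusted p of at least 0.919.

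Between homozygous and wild-type libraries none of the 237 genes passed the limma threshold (adjusted p under 0.05 over the 20956 features tested, of which 0.0382% passed). None of them passed with edgeR or DESeq2 either. The groups did not overlap in 4 genes that were higher (6.14% of all features) and 13 that were lower (5.27% of all features). At an unadjusted p under 0.05, 2 genes were higher and 3 lower, or 0.844% and 1.27%, against 3.34% and 3.01% of all features. The median log2 difference over the 237 genes was -0.06, over all features 0.00 and over the shorter protein-coding genes 0.07. It was positive in 104 of the 237 (43.9%), against 49.9% of all features and 57.6% of the shorter genes. The median turned to 0.02 without homozygous replicate 5, was -0.01 without homozygous replicate 4 and -0.03 without wild-type replicate 2, and moved to -0.17 without homozygous replicate 6 and -0.11 without wild-type replicate 1. With Eif2s3y presence as a covariate it was -0.01, none of the 237 passed, and 2 of all features passed in place of 8. The Purkinje cell marker sum was also apart between these groups, though neither of its markers was apart alone. Gfap was higher in homozygous without overlap, and Aldh1l1 and Mbp (126 to 179 against 188 to 291) were lower. The part of these markers in the result was not tested.

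Clic5 had the smallest p among the lower genes, those with LOC, RGD, AABR or AC0 names left out. It encodes a chloride intracellular channel protein that associates with the actin cortex (chr9:19121677-19372673, rn6, minus strand, 251 kb). In set 2 it read 385, 263 and 231 in homozygous replicates 4 to 6, against 737, 677 and 442 in the wild type, and the groups did not overlap. The means were 293 ± 81.2 and 619 ± 156 (SD, n = 3 each), 2.11-fold lower in the homozygous libraries, at a log2 difference of -1.08 (SE 0.31, limma adjusted p = 0.558). Itga9, an integrin alpha subunit (chr8:127271289-127572988, plus strand), read 44.4, 46.5 and 33.3 in homozygous replicates 4 to 6, against 93.01, 74.1 and 60.6 in the wild type. These groups did not overlap either, at a log2 difference of -0.85 (SE 0.33, limma adjusted p = 0.742). Sdk2, an immunoglobulin adhesion molecule of synapses, read 50.3, 64.6 and 68.3 in homozygous replicates 4 to 6, against 79.9, 217 and 73.9 in the wild type. The groups were apart, wild-type replicate 2 was far above the others, and the log2 difference was -0.83 (SE 0.41, limma adjusted p = 0.815). Pola1, the catalytic subunit of DNA polymerase alpha, read 71.3, 71.4 and 37.5 in homozygous replicates 4 to 6, against 99.6, 80.7 and 97.1 in the wild type. Its homozygous libraries lay below the wild-type ones, at -0.67 (SE 0.34, limma adjusted p = 0.825). Pola1 lies on X, and homozygous replicates 4 and 6 had reads of the Y gene Eif2s3y while no wild-type library did. Nebl, an actin-binding protein of the nebulin family, read 30.4, 30.6 and 21.7 in homozygous replicates 4 to 6, against 37.2, 47.9 and 39.03 in the wild type. The groups were apart by a small margin, at -0.58 (SE 0.30, limma adjusted p = 0.831).

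On the higher side the smallest p belonged to Mgmt, which encodes the methyltransferase that removes alkyl groups from guanine in DNA (chr1:209237233-209464190, plus strand). It read 73.7, 47.6 and 60.8 in homozygous replicates 4 to 6, against 45.96, 29.1 and 34.04 in the wild type. The homozygous libraries were all above the wild-type ones, 1.65-fold on average, at a log2 difference of 0.73 (SE 0.31, limma adjusted p = 0.757). Set 1 did not show this, since Mgmt read 37.5, 52.98 and 56.5 in homozygous replicates 1 to 3, against 64.4 and 48.8 in the heterozygous pair. Agmo, an enzyme that cleaves ether lipids, read 92.4, 37.4 and 115 in homozygous replicates 4 to 6, against 13.1, 46.9 and 53.1 in the wild type. Homozygous replicate 5 lay inside the wild-type range, and the log2 difference was 1.17 (SE 0.52, limma adjusted p = 0.762). Frmd3, a FERM domain protein, was read at a mean of only 5.73 and differed by 1.10 (SE 0.58, limma adjusted p = 0.831). Among genes with ample reads, Fto stands for those with tight groups, with 2473, 2848 and 3350.0 in homozygous replicates 4 to 6, against 2743, 3019 and 2909 in the wild type. Its log2 difference was -0.01 with an SE of 0.16.

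Between homozygous and heterozygous libraries again none of the 237 passed in limma, nor did any of the 20956 features (0%). Here 28 genes (11.8%) were higher at an unadjusted p under 0.05 and 8 (3.38%) lower, against 6.16% and 5.96% of all features. The groups did not overlap in 44 higher genes (18.6%; 15.2% of all features) and 25 lower genes (10.5%; 15.1% of all features). The median log2 difference was 0.20, against 0.04 over all features and 0.03 over the shorter genes. It was positive in 146 of 237 (61.6%; 52.7% of all features). With DESeq2 on the recovered reads 4 genes passed (0.978% of all features did) and with edgeR 0. The 4 genes were Cntn3 and Lrrtm4 as higher and Clic5 and Myo10 as lower. The median rested on few libraries. It was 0.09 without homozygous replicate 1 and 0.34 without homozygous replicate 2. The neuron and endothelial marker sums, Olig1 and Neurod1 also differed between these groups without overlap. So did Gfap and Aqp4, which were higher in homozygous, and Pcp4, which was lower (1979 to 2652 against 3203 to 3311). The part of these markers in the result was not tested.

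Cntn3 encodes a contactin, an immunoglobulin adhesion molecule anchored to the axon membrane (chr4:134784668-135069970, minus strand, 285 kb), and it is the gene above whose promoter holds no CpG. It read 418, 304 and 131 in homozygous replicates 1 to 3, against 79.3 and 54.9 in the heterozygous pair. Every homozygous library was above both heterozygous ones, 3.83-fold by the fit, at a log2 difference of 1.94 (SE 0.42, limma adjusted p = 0.2). Lrrtm4, a leucine-rich repeat protein that organises excitatory synapses (chr4:110699557-111497643, plus strand, 798 kb), read 131, 102 and 56.5 in homozygous replicates 1 to 3, against 34.7 and 12.2 in the heterozygous pair. The groups did not overlap, and the log2 difference was 2.08 (SE 0.47, limma adjusted p = 0.203). Htr2c, the serotonin 2C receptor, read 42.6, 12.7 and 20.8 in homozygous replicates 1 to 3, against 3.72 and 0 in the heterozygous pair. It had no read in heterozygous replicate 2, and the fitted difference of 3.44 (SE 0.89, limma adjusted p = 0.253) depends on the added 1 read. Ndst4, a heparan sulfate N-deacetylase and N-sulfotransferase, was in the same position with 107, 23.3 and 30.7 in homozygous replicates 1 to 3, against 13.6 and 0 in the heterozygous pair. Its fitted difference was 3.52 (SE 1.00, limma adjusted p = 0.269). Npsr1, the receptor of neuropeptide S, read 56.98, 43.4 and 27.4 in homozygous replicates 1 to 3, against 13.6 and 4.88 in the heterozygous pair. These groups were apart as well, at 2.17 (SE 0.60, limma adjusted p = 0.261).

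The lower genes in this comparison were led by Clic5, which read 260.4, 378 and 221 in homozygous replicates 1 to 3, against 833 and 1607 in the heterozygous pair. The heterozygous libraries were at least 2 times as high as any homozygous one, and the fit gave 4.13-fold lower in the homozygous group, a log2 difference of -2.05 (SE 0.35, limma adjusted p = 0.164). Myo10, an unconventional myosin of filopodia (chr2:77868412-78071309, plus strand), read 49.04, 43.4 and 88.9 in homozygous replicates 1 to 3, against 156 and 415 in the heterozygous pair. Heterozygous replicate 2 was far above the rest, and the log2 difference was -2.13 (SE 0.45, limma adjusted p = 0.2). Prex2 read 3459.7, 3380.2 and 4432 in homozygous replicates 1 to 3, against 5831 and 12664 in the heterozygous pair. Its groups did not overlap, at -1.20 (SE 0.41, limma adjusted p = 0.317). Itga9, with 71.4, 42.4 and 95.5 in homozygous replicates 1 to 3, against 109 and 155 in the heterozygous pair, had -0.96 (SE 0.37, limma adjusted p = 0.349). Cpq, a peptidase of lysosomes and plasma, read 489, 484 and 563 in homozygous replicates 1 to 3, against 798 and 701 in the heterozygous pair. Its groups were narrow and apart, at -0.55 (SE 0.20, limma adjusted p = 0.344).

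**Figure D2:**
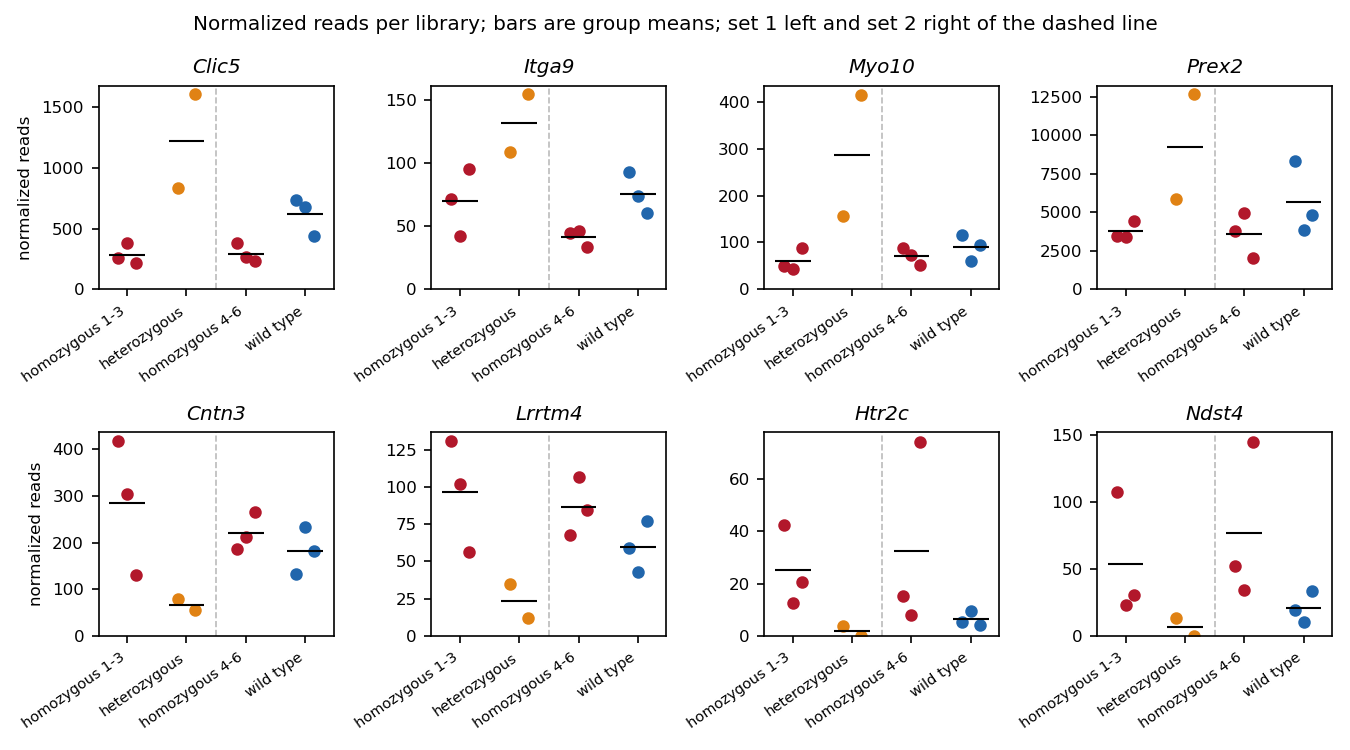
Normalized reads of 8 genes per library on the y axis, by group on the x axis; each point is a library, the black bar is the group mean, and the dashed line parts the 2 separately normalized sets. Clic5 and Itga9 are lower in the homozygous libraries of both sets, while Cntn3, Lrrtm4 and Myo10 are set apart mainly by the heterozygous libraries.

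Heterozygous libraries were never normalized with wild-type ones, and the contrast between them was the difference of both comparisons above, with the error of each. None of the 237 genes, and none of all features (0%), passed in limma, and none of the 237 passed with edgeR or DESeq2. At an unadjusted p under 0.05, 2 genes were higher and 10 lower, 0.844% and 4.22%, against 3.90% and 4.07% of all features. The median log2 difference was -0.29, against -0.02 over all features and 0.06 over the shorter genes. It was positive in 80 of 237 (33.8%; 48.6% of all features). The median was -0.14 without homozygous replicate 1 and -0.45 without homozygous replicate 2. Myo10 had the smallest p on the higher side, at 1.82 (SE 0.61, limma adjusted p = 0.585), followed by Arhgap15, a GTPase-activating protein for Rac, at 1.20 (SE 0.53, limma adjusted p = 0.615). Clic5, Mgmt and Skap1, an adaptor of T cell signalling, followed at 0.97, 0.94 and 1.65 (SE 0.46, 0.47 and 0.87). On the lower side Trdn, which encodes triadin of calcium stores, had -3.29 (SE 1.10) with no read in heterozygous replicate 1. Ryr2, a calcium release channel of the same stores, read 205, 181 and 122 across homozygous replicates 1 to 3, 68.2 and 51.3 in the heterozygous pair, 119, 94.1 and 151 in homozygous replicates 4 to 6, and 68.9, 213 and 272 in the wild type. The heterozygous libraries were its lowest, beside wild-type replicate 1, at a log2 difference of -1.88 (SE 0.64, limma adjusted p = 0.585). Cers6, a ceramide synthase, had -1.60, Cntn3 -1.64 and Lrrtm4 -1.55 (SE 0.63, 0.56 and 0.63).

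The comparisons inside set 1 and set 2 share no library, so genes apart in the same direction in both were counted. Without overlap in either set, 4 genes were lower in the homozygous libraries (1.69%; 0.878% of all features) and 1 was higher (0.422%; 0.969% of all features). The lower ones were Clic5, Itga9, Nebl and Pdgfd, a platelet-derived growth factor. Pdgfd read 138, 117 and 116 across homozygous replicates 1 to 3, 166 and 212 in the heterozygous pair, 79.5, 79.3 and 93.3 in homozygous replicates 4 to 6, and 166, 95.7 and 97.98 in the wild type. Its gap to the comparison group was narrow in set 2, and the log2 differences were -0.46 (SE 0.26) and -0.60 (SE 0.29). Nebl read 37.5, 30.7 and 33.2 in homozygous replicates 1 to 3, against 39.7 and 40.3 in the heterozygous pair, also with a narrow gap. Ndst4 was the higher one. In set 2 it read 52.6, 34.00 and 145 in homozygous replicates 4 to 6, against 19.7, 10.3 and 33.2 in the wild type. Homozygous replicate 6 lay far above its group, and the gap between the groups was narrow, 34.00 against 33.2. With all 11 libraries scaled together, Clic5 and Nebl were lower in each of the 6 homozygous libraries than in each of the 5 others (0.844%; 0.329% of all features), and no gene was higher in all 6 (0%; 0.296%). Against the wild type alone Stard9, a kinesin-family protein with a lipid-binding domain, joined them, so 3 genes were lower (1.27%; 0.897% of all features) and 0 higher (0%; 1.08%). Stard9 read 153, 167 and 173 across homozygous replicates 1 to 3, 141 and 422 in the heterozygous pair, 167, 164 and 122 in homozygous replicates 4 to 6, and 284, 175 and 207 in the wild type. It was chosen for this count after its values were seen. For Nebl both of these counts depended on the joint scaling. On the deposited values its homozygous replicate 1, at 37.5, was not below every wild-type library.

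**Figure D3:**
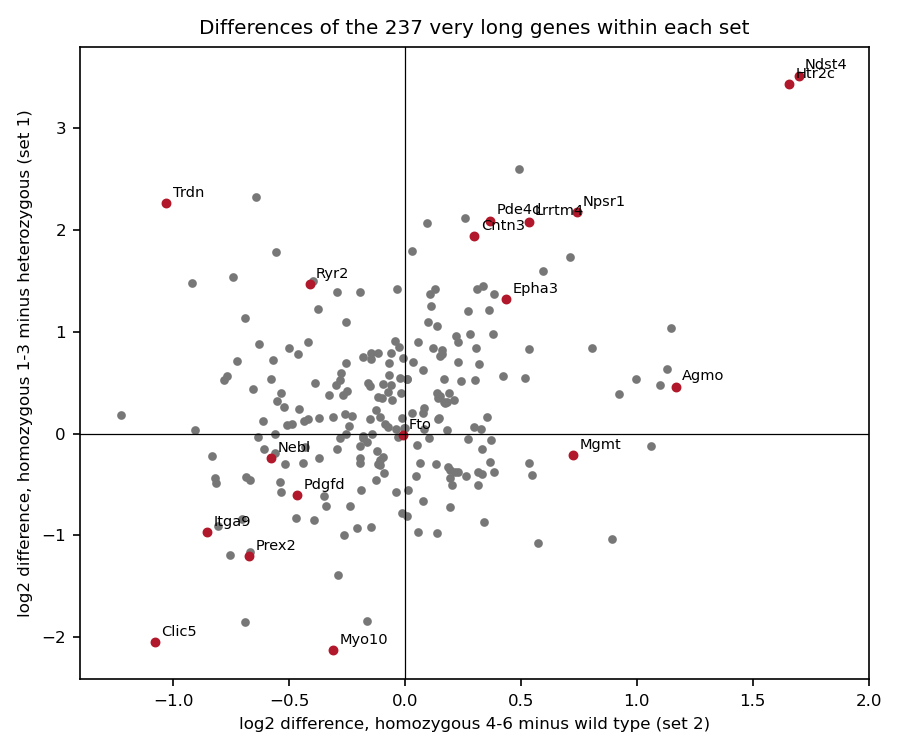
Each point is 1 of the 237 genes, with its log2 difference between homozygous replicates 4 to 6 and wild type on the x axis and that between homozygous replicates 1 to 3 and heterozygous on the y axis; named genes are in red. Clic5 is at -1.08 and -2.05 in the lower left corner, Fto at the centre, and Myo10 differs mainly on the y axis at -2.13.

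Span and exon content could be separated best inside the 237 genes, where Spearman's rho between them was 0.11. Over the 6561 very long and shorter genes it was 0.57. There rho with the difference between homozygous and wild type was -0.16 for span and -0.28 for exonic length. For homozygous against wild type the median log2 difference declined from 0.15 in genes under 10 kb to 0.06 at 10 to 50 kb, -0.02 at 50 to 100 kb and -0.07 at 100 to 200 kb. It did not go on declining in the very long genes, with -0.07 at 200 to 500 kb (199 genes), 0.01 at 500 to 1000 kb (29 genes) and -0.04 at 1000 kb or more (9 genes). Inside the 237, Spearman's rho between the difference and span was -0.02, and between the difference and exonic length -0.34, a description over genes that share the same libraries. By exonic length the median was 0.12 under 2 kb (30 genes), 0.00 at 2 to 4 kb (93), -0.11 at 4 to 8 kb (79) and -0.28 at 8 kb or more (35, of which 26 were negative). The shorter genes gave similar values at the same exonic length, 0.20, 0.03, -0.09 and -0.26. Genes under 200 kb thus showed a decline by exonic length of about the size seen in the very long ones.

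For homozygous against heterozygous the medians were higher in the longer classes, up to 1000 kb. The median was -0.02 under 10 kb, 0.05 at 10 to 50 kb, 0.05 at 50 to 100 kb, 0.09 at 100 to 200 kb, 0.18 at 200 to 500 kb, 0.25 at 500 to 1000 kb and 0.14 at 1000 kb or more. At equal exonic length the very long genes were above the shorter ones in each class. They had medians of 0.04, 0.23, 0.20 and 0.26 from the shortest to the longest exon class, and the shorter genes -0.01, 0.07, 0.03 and 0.00. Inside the 237, rho was 0.11 with span and 0.00 with exonic length. Over the 6561 very long and shorter genes it was 0.07 with span and 0.06 with exonic length, so both were close to 0. For heterozygous against wild type, which is the difference of these comparisons, the medians were 0.18, 0.06, -0.08, -0.15, -0.29, -0.23 and -0.56 from the shortest to the longest span class.

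**Figure D4:**
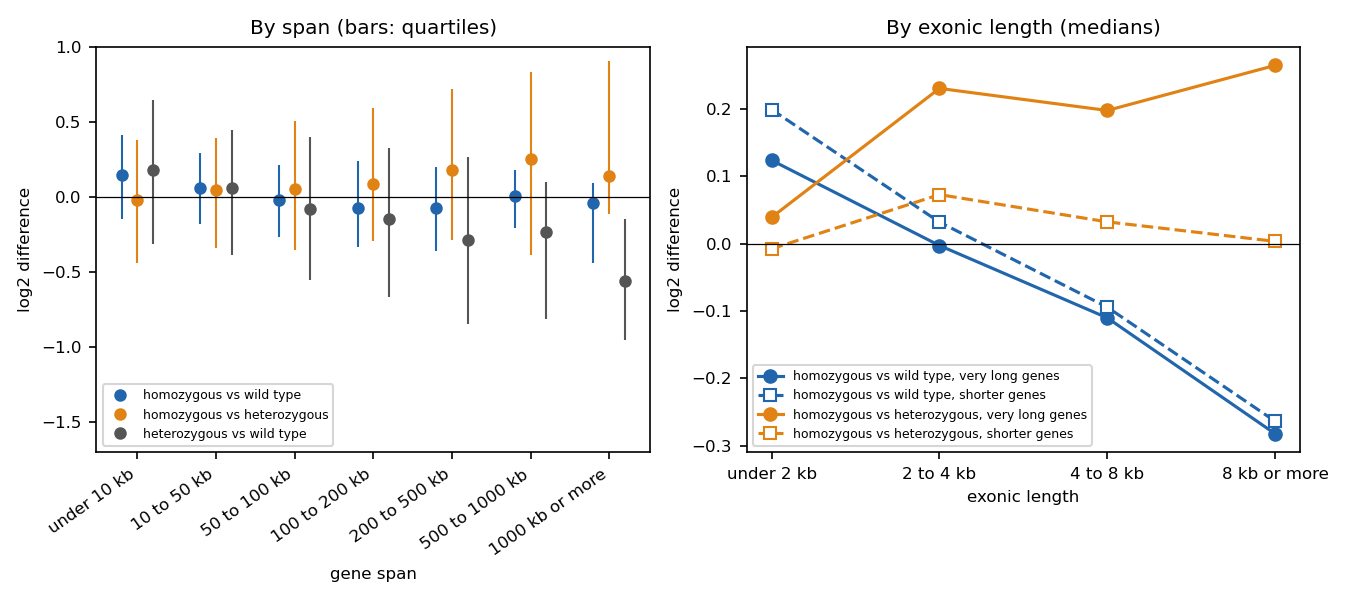
Left, median log2 difference (points) and quartiles over genes (bars) on the y axis by gene span on the x axis for the 3 comparisons; right, medians by exonic length for very long genes (filled) and shorter genes (open). The blue lines on the right come together, at -0.28 and -0.26 in the longest exon class, while the filled orange line lies above the open one.

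Taken library by library, the median level of the 237 genes lay below that of the shorter genes everywhere, by 0.33, 0.80 and 0.37 on the log2(normalized reads + 1) scale in homozygous replicates 1 to 3. In replicates 4 to 6 it lay below by 0.76, 0.64 and 0.58. In the heterozygous libraries it lay below by 0.79 and 0.78, and in the wild-type libraries by 0.47, 0.50 and 0.61. Homozygous replicate 2 was as low as the heterozygous pair, and replicates 1 and 3 were the highest of all, so set 1 overlapped between the groups. In set 2 replicate 6 overlapped wild-type replicate 3. The group means of this difference were -0.50 ± 0.26 (SD, n = 3), -0.79 ± 0.003 (n = 2), -0.66 ± 0.09 (n = 3) and -0.53 ± 0.07 (n = 3) for homozygous set 1, heterozygous, homozygous set 2 and wild type. Among the 155 genes with no same-strand overlap these means were smaller in size, -0.21, -0.51, -0.35 and -0.23 in the same order. The spread among the 3 homozygous libraries of set 1 was thus as wide as the range over all libraries.

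**Figure D5:**
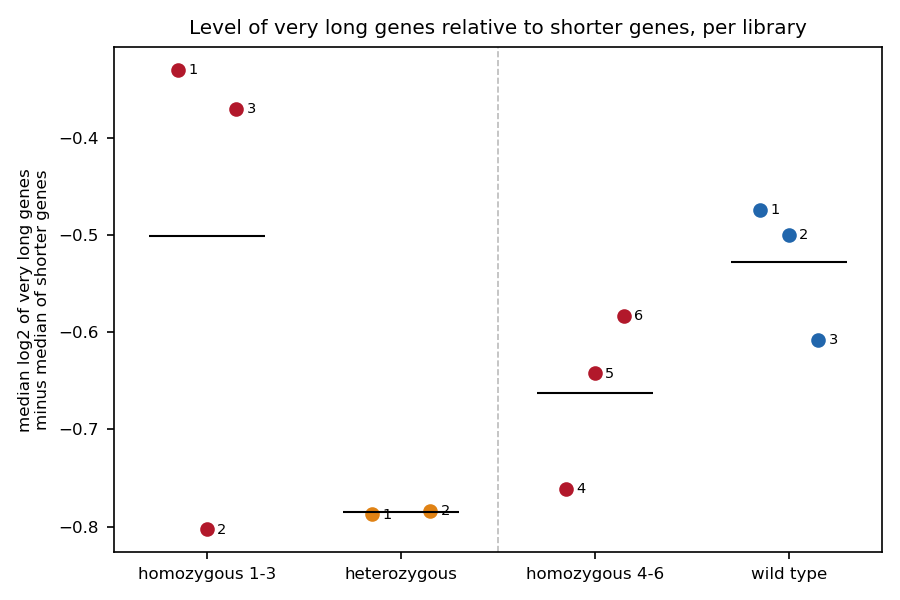
Median log2(normalized reads + 1) of the 237 genes minus that of the 6324 shorter genes on the y axis, by group on the x axis; points are libraries with their replicate number, bars are group means, and the dashed line parts the sets. Homozygous replicate 2 lies at -0.80 beside the heterozygous libraries at -0.79 and -0.78, away from replicates 1 and 3 at -0.33 and -0.37.

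By role, the groups were described by their counts, and in none of them did a gene pass in any comparison with limma. The immunoglobulin, leucine-rich repeat and neurexin-type adhesion molecules made up 10 genes (Cntn3, Lrrtm4, Sdk2, Lrrc4c, Il1rapl1, Il1rapl2, Lrfn5, Hmcn1, Cadm2 and Cntnap5b). Against heterozygous 7 of the 10 were positive with a median log2 difference of 1.14, beside 0.20 for all 237, and against wild type 5 of 10 with a median of 0.03. Cadherins, protocadherins and catenins were 6. Cdh12 and Cdh10, neuronal cadherins, differed by 1.37 (SE 0.72) and 0.78 (SE 0.50) against heterozygous, and Pcdh15, the protocadherin of hair-cell tip links, by -0.56 (SE 0.31) against wild type. The median of the 6 was 0.18 against heterozygous and -0.24 against wild type.

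Axon guidance genes were 6 (Sema3a, Sema3e, Sema5a, Epha3, Ephb1 and Robo2), with 5 positive against heterozygous and a median of 1.00, and 4 positive against wild type with a median of 0.10. Epha3, an ephrin receptor, read 151, 82.7 and 73.1 in homozygous replicates 1 to 3, against 57.01 and 25.6 in the heterozygous pair. The groups did not overlap, at 1.32 (SE 0.46, limma adjusted p = 0.324). Sema3a, a secreted repellent of axons, read 263, 80.5 and 59.8 in homozygous replicates 1 to 3, against 40.9 and 39.1 in the heterozygous pair, with homozygous replicate 1 far above the others. Sema5a, a membrane semaphorin and the best-read of the group, read 1052, 1247 and 949 across homozygous replicates 1 to 3, 744 and 845 in the heterozygous pair, 801, 637 and 1180.3 in homozygous replicates 4 to 6, and 679, 1984 and 1754 in the wild type. It was higher in homozygous than in heterozygous libraries, and highest in wild-type replicates 2 and 3. Its log2 differences were 0.44 (SE 0.39) and -0.66 (SE 0.35). Ephb1 was the negative one against heterozygous, at -0.66 (SE 0.31).

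Receptors for transmitters and peptides that the name rule had kept were 5, Htr2c, Npsr1, Gabbr2, the glycine receptor subunit gene Glra2 and the opioid receptor gene Oprm1. All 5 were positive against heterozygous, with a median of 2.17, and 4 of 5 against wild type, with a median of 0.60. This group, like those of matrix, cilia, DNA repair, DNA-binding factors, membrane traffic and enzymes, was put together from the names of the genes with their differences known. In set 1 the neuron marker sum was also higher in homozygous libraries, but of its 5 markers only Snap25 and Stmn2 were apart. Nefl and Nefm overlapped, Rbfox3 ran the other way, and the Purkinje cell marker Pcp4 was lower (1979 to 2652 against 3203 to 3311). The part of these markers in the receptor differences was not tested. Gabbr2, the only one with over 1000 normalized reads, read 8085, 5064 and 4539 across homozygous replicates 1 to 3, 3571 and 4574 in the heterozygous pair, 3382, 5273 and 4402 in homozygous replicates 4 to 6, and 4053, 8039 and 5409 in the wild type. Its groups overlapped in both sets, at 0.50 (SE 0.31) and -0.39 (SE 0.28).

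Calcium and kinase signalling held 5 genes, the release channels Ryr2 and Ryr3, the protein kinase C gene Prkca, the phospholipase gene Plce1 and the doublecortin-like kinase gene Dclk1. All 5 were negative against wild type, with a median of -0.43 and a range of -0.58 to -0.23, and 4 of 5 were positive against heterozygous with a median of 0.32. Prkca read 1157, 482 and 1079 across homozygous replicates 1 to 3, 497 and 921 in the heterozygous pair, 516, 400.0 and 1042 in homozygous replicates 4 to 6, and 736, 926 and 999.7 in the wild type. The homozygous libraries were spread widely in both sets, and the groups overlapped. Cyclic nucleotide genes were 4 and split evenly against heterozygous, with Pde4d, a cyclic AMP phosphodiesterase, at 2.09 (SE 0.81) and Akap13, an anchor of protein kinase A, at -1.16 (SE 0.60).

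The cytoskeletal and dystrophin group of 8 (Dmd, Utrn, Dtnb, Sgcd, Sntg2, Dst, Nav1 and Fhod3) divided 4 to 4 in both comparisons, with medians of -0.06 against wild type and 0.10 against heterozygous. Dst, the giant linker dystonin, read 77.2, 15.9 and 88.9 across homozygous replicates 1 to 3, 42.1 and 292 in the heterozygous pair, 91.2, 79.3 and 42.5 in homozygous replicates 4 to 6, and 205, 82.6 and 88.8 in the wild type. It varied more than 10-fold between libraries and the groups overlapped. Matrix, integrin and metalloprotease genes were 18. Of these 13 were negative against wild type with a median of -0.36, and 15 were positive against heterozygous with a median of 0.57. Itga9 was an exception in set 1. Mmp16, a membrane-bound metalloprotease, read 363, 255 and 288 across homozygous replicates 1 to 3, 234 and 198 in the heterozygous pair, 210.4, 238 and 317 in homozygous replicates 4 to 6, and 255, 452 and 257 in the wild type. It was higher in each homozygous library of set 1 than in the heterozygous ones, at 0.47 (SE 0.29).

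Genes of cilia and flagella were 8, with 7 negative against wild type (median -0.12) and 7 positive against heterozygous (median 0.46). DNA repair and replication genes were 5 (Mgmt, Pola1, Prkdc, Nsmce2 and Spidr), all negative against heterozygous with a median of -0.45, and 3 of 5 negative against wild type with a median of -0.12. DNA-binding transcription factors were 13, with 10 negative against wild type (median -0.30) and 8 positive against heterozygous (median 0.38). Bach2, a repressor of the CNC family, read 65.6, 60.4 and 61.5 in homozygous replicates 1 to 3, against 33.5 and 41.5 in the heterozygous pair. Its groups did not overlap, at 0.73 (SE 0.29, limma adjusted p = 0.363). Regulators of membrane traffic and small GTPases were 18, with 13 negative against wild type (median -0.10) and 10 positive against heterozygous (median 0.05). Exoc4, an exocyst subunit of 807 kb, read 612, 417 and 406 in homozygous replicates 1 to 3, against 319 and 350.4 in the heterozygous pair, and the exocyst gene Exoc6b read 1315, 1167 and 901 in homozygous replicates 1 to 3, against 975 and 1281 in the heterozygous pair. Exoc4 was apart, at 0.49 (SE 0.27), and Exoc6b overlapped, at 0.00 (SE 0.24). Metabolic and lipid enzymes were 11, with medians of 0.08 and -0.12. Genes of common fragile sites, a class defined by breakage in human cells, were 7, with medians of 0.01 against wild type and 0.49 against heterozygous.

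Of the 237 genes 189 matched a promoter in the RefSeq table (GRCr8, 250 bases before to 50 after the start, the most upstream entry where a gene had several). Their median GC content was 59.3% and their median CpG count 17. On either strand TATAAA, the core of a TATA box, was found in 6.35% of them, against 8.24% of the shorter genes' promoters and 14.3% of all promoters in the table. CCAAT was found in 33.9% (38.7% and 37.8%), GGGCGG, the GC box, in 51.9% (58.8% and 34.9%), and TGACGTCA, the cyclic AMP response element, in 2.12% (3.15% and 1.91%). Matches are letters in this window and not binding sites. By CpG in the whole 300 bases, genes with 5 or fewer had a median log2 difference of 0.69 against heterozygous (32 genes, 22 positive), those with 6 to 15 of 0.28 (56 genes) and those with over 15 of 0.16 (101 genes). The shorter genes in the same classes had -0.07, 0.01 and 0.06. Cntn3, with 0, lies in the first class, and Clic5, with 19, and Myo10, with 23, lie in the last, as does Htr2c, with 22. Against wild type the 3 classes of very long genes had 0.10, -0.01 and -0.09.

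Assembled features with no gene name lie inside some of the spans, another readout of the same loci. Of those on the same strand, 23 in 20 of the genes had enough reads to be tested. None passed in limma (0.0382% of all features did against wild type and 0% against heterozygous). Their median log2 differences were 0.00 against wild type and 0.23 against heterozygous. The 15 that lay nearer to the gene's start than to its end had a median of 0.33 against heterozygous, and the 8 nearer to the end -0.27. Against wild type the same 2 parts had -0.004 and 0.03. Features on the opposite strand also had a lower median nearer the end against heterozygous, -0.34 against 0.04 nearer the start. The 23 features on the same strand were read thinly, at a median of 14.6 normalized reads.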

How the data were processed

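RNA of 11 libraries was sequenced in paired-end mode after TruSeq preparation, per the labels' protocols. FastQC, HISAT2 2.0.4 and build rn6 were used, per the submitters' processing notes. For the read counter, the annotation and strandedness, nothing is given in the sources used here. Each deposited value is a signal, reads per gene divided by 1 size factor per library by the authors, in 2 sets. At a tolerance of 0.001, 100% of values came out as whole reads, and the factors equalled median-of-ratios factors to within 3e-15. Shared features averaging 1 or more (20956) were fitted with limma 3.58.1 (R 4.3.3, mean-variance trend) on log2(value + 1), with group and set as terms and Benjamini-Hochberg adjustment over all of them. A fold is on that scale and understates the change of genes with few reads. The added value of 1 is about 1 read. edgeR 4.0.16 and DESeq2 1.42.0 on the recovered reads were alternatives. The models were tested on simulated data. The genes, role lists and tests were chosen with earlier results of these data known. Genes with LOC, RGD, AABR or AC0 names were counted but not named. Genes are named by a rule: the 10 longest, up to 5 per direction and comparison with the smallest p where none passed, those apart in both sets, those at the thresholds, and up to 4 per role list. Others, such as Ncald, Rcan2, Gabbr2, Chchd6, Pcsk2 and Fto for their level or tight groups and Stard9 for its separation, fall outside it and were chosen after their values were seen; further names only list a group's members. Promoters come from RefSeq (GRCr8), and protein lengths were not analysed here.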

Additional observations from a re-analysis of the deposited data

Results flagged for a closer look

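Among 64 groups of 6 homozygous libraries tested with all libraries scaled together, 3 had a library far from the others. This is close to the share that chance gives, about 1 in 20. Ctnna3, an alpha catenin, had 30.2 normalized reads in homozygous replicate 6, with the next library at 12.5 and the lowest at 7.39. Sema3a had 259 in homozygous replicate 1, with the next at 87.3 and the lowest at 57.6. Dclk1 had 823 in homozygous replicate 1, with the next at 582 and the lowest at 449. No cause was tested.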

How the results depend on the processing

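The number of features passing for homozygous against wild type was 8, and became 5 with 5 added to each value, 5 with edgeR, 37 with DESeq2, 2 with Eif2s3y presence as a covariate, 3 with only the groups compared, and 2 to 11 when 1 library was left out. For homozygous against heterozygous it was 0, and became 205 with DESeq2, 17 without the set term, 5 with Eif2s3y presence as a covariate and 0 to 3 when 1 library was left out. Of the 237 genes, 4 passed there with DESeq2 and 1 (Clic5) without the set term. For heterozygous against wild type it was 0, and became 1 with 5 added, 27 with DESeq2, 2 without the set term, 3 with only the groups compared and 0 to 7 when 1 library was left out. Replicate numbers are shared between groups, and same-numbered libraries correlated by -0.09 to 0.15 in their deviations from group means. The homozygous mean joined both sets, and differently numbered pairs were not compared. What the shared number stands for was thus not settled. With the replicate number as a block, 4 and 2 features passed in the first 2 comparisons, and the sign turned for Pdgfd against wild type (0.0879) and Skap1 between heterozygous and wild type (-0.0951); this fit mixes the sets. The level of very long minus shorter genes in heterozygous libraries was -0.79, and became -0.74 with 5 added, -0.77 with joint TMM scaling and -0.51 in genes with no same-strand overlap. That last choice gave -0.21, -0.35 and -0.23 in homozygous set 1, homozygous set 2 and wild type. The causes of these shifts were not tested. Of 756 alternative values for 33 named gene differences, 749 kept their direction and their side of the threshold, 5 passed it and 2 turned. The depth of 5406669 to 8723823 reads per library and the median of 52.9 normalized reads per gene limit what can be seen in single genes.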

Other observations

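Among role lists not described above, the glial and vascular list held 8 of the very long genes, with 6 negative against wild type (median log2 difference -0.11) and 5 positive against heterozygous (median 0.61). The housekeeping list of glycan, exocyst and nucleotide genes held 10, with 5 negative against wild type (median -0.03) and 8 positive against heterozygous (median 0.26). None passed in limma. The tested features with no gene name on the strand opposite to a very long gene numbered 26, with median log2 differences of 0.09 against wild type and -0.13 against heterozygous.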
